A study of Mus musculus with 6 samples.

Results

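Plasma cells are the antibody-secreting end stage of B cells, and 6 genes that mark them or the IgA they can make were followed here over 6 arrays of sorted mouse bone marrow B cells. The genes are Igha, Jchain, Sdc1, Prdm1, Irf4 and Xbp1. All 15 probe sets whose only gene symbol is one of these were taken, of 45101 probe sets and of 18193 genes with a symbol of their own. Igha has 3 probe sets, Jchain 1, Sdc1 4, Prdm1 1, Irf4 2 and Xbp1 4. A probe set is a group of short probes on an Affymetrix array whose brightness is summarised as a single signal on a linear scale.

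The 3 groups have 2 arrays each. TAK1-deficient Igκ+ cells carry the genotype label mb-1/TAK1f/f and were sorted on surface Igκ. Wild-type Igλ+ and wild-type Igκ+ cells carry the label mb-1/TAK1+/+ and were sorted on surface Igλ and Igκ. All mice were C57BL/6 of mixed sex, aged 8 to 12 weeks, and in every group bone marrow cells with Gr1, CD11b, Ter119, CD3 or DX5 on their surface were removed before the sort. The element written mb-1, an older name of the B cell gene Cd79a, is shared by all groups, and the labels do not say what it carries. Map3k7 encodes TAK1, a kinase that relays receptor signals to NF-κB and to MAP kinases. The labelled groups are called TAK1-deficient and wild-type below. Whether the arrays of a group stem from different animals is not stated in the labels, so the spread behind each p-value is that between arrays and may be technical.

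The TAK1-deficient arrays stood apart from the other 4. Their median signal was 324 and 323, against 44.9 to 59.1 on wild-type arrays. The 95th percentile of the unspiked controls, probe sets for RNA that was not added, was 77.7 and 75.7 on TAK1-deficient arrays, against 10.3 to 17.4 elsewhere. For Actb the 3′ signal exceeded the 5′ signal, a sign of RNA quality, by a ratio of 6.28 and 4.18 on these arrays and of 1.25 to 1.58 on wild-type arrays. The median log2 difference of all 45037 non-control probe sets between TAK1-deficient and wild-type Igκ+ cells was 1.53. Among the 27022 probe sets with a mean signal above the 40th percentile, which hold all 15 followed here, it was 0.23. The shift thus depends on signal level. The genotype differences of the 6 genes are also set against the median of 1.53, which can make falls of bright probe sets look larger. Genotype and these array properties cannot be told apart. Map3k7 itself, read on 1 of its 6 probe sets, had a signal of 346 and 599 in TAK1-deficient Igκ+ cells, 2149 and 1957 in wild-type Igλ+ cells and 2196 and 1805 in wild-type Igκ+ cells. Its log2 difference between TAK1-deficient and wild-type Igκ+ cells was -2.09 on the deposited scale. It lay below 0 under each of the 5 scalings described below, and with the level adjustment it was -0.62 and not called. The 7 measured B cell markers, Cd79a and Ms4a1 among them, had a summed signal of 48404 and 55622 in TAK1-deficient Igκ+ cells, 45730 and 44908 in wild-type Igλ+ cells and 42721 and 46261 in wild-type Igκ+ cells. Ms4a1 alone had 21780 and 26569 in TAK1-deficient and 10466 and 10087 in wild-type Igκ+ cells. With each marker set against its wild-type log2 mean, the median of the 7 was -1.23 and -0.94 on the TAK1-deficient arrays. Between TAK1-deficient and wild-type Igκ+ cells 2 of the 7 rose and 4 fell, where 49.2% of all genes rose and 32% fell (1 probe set per gene).

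A B cell becomes a plasma cell when Irf4 and Blimp-1, the product of Prdm1, shut down the B cell program and Xbp1 enlarges the secretory apparatus. Plasma cells gain syndecan-1 (CD138, encoded by Sdc1) and secrete antibody. Igha encodes the constant region of the IgA heavy chain, and the small protein encoded by Jchain links IgA or IgM into polymers. Bone marrow is a long-term home of plasma cells, and Irf4 and Xbp1 are also expressed in earlier B cells.

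RefSeq windows upstream of the start site (build GRCm38.p6) were matched for 5 of the 6 genes, all but Igha. Those of Jchain and Xbp1 are shown because both genes fell in TAK1-deficient cells while Jchain, and not Xbp1, differed widely between the wild-type arrays. The 250 bases before the Jchain start lie at chr5:88527898-88528147 on the minus strand and those of Xbp1 at chr11:5520391-5520640 on the plus strand, each read 5′ to 3′ along the gene, with matched motifs in capitals.
Jchain: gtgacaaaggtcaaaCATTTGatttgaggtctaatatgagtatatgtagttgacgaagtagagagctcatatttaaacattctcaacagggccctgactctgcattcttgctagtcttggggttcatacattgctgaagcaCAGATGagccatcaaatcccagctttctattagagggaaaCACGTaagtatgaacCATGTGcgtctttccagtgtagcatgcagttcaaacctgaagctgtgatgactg
Xbp1: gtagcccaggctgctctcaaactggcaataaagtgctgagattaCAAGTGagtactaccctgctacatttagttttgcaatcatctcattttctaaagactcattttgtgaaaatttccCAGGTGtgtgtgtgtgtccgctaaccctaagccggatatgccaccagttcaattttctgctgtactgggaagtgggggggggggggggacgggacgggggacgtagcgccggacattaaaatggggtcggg

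The motifs searched, on both strands, were the E-box CANNTG, its form CAGGTG bound by E2A, the IRF element GAAANNGAAA, the core ACGTG of sites of Xbp1 and Atf6, the κB-type GGGANNNNCC, the octamer ATGCAAAT and the TATA box TATAAA. Since CAGGTG is a case of CANNTG, their matches overlap. The Jchain window held 3 E-boxes, starting 235, 109 and 54 bases before the start, and 1 ACGTG core read on the other strand, at 69 bases. The Xbp1 window held 2 E-boxes, at 206 and 131 bases, the second of them CAGGTG. Of 32851 promoter windows of the same length, 66.2% held CANNTG, 17.2% CAGGTG and 16.6% ACGTG. Neither window held an IRF element, a κB-type motif, the octamer or TATAAA as spelled here, which 2.98%, 17.6%, 1.60% and 12.4% of all windows did. These matches only describe the letters in the windows.

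**Figure D1:**
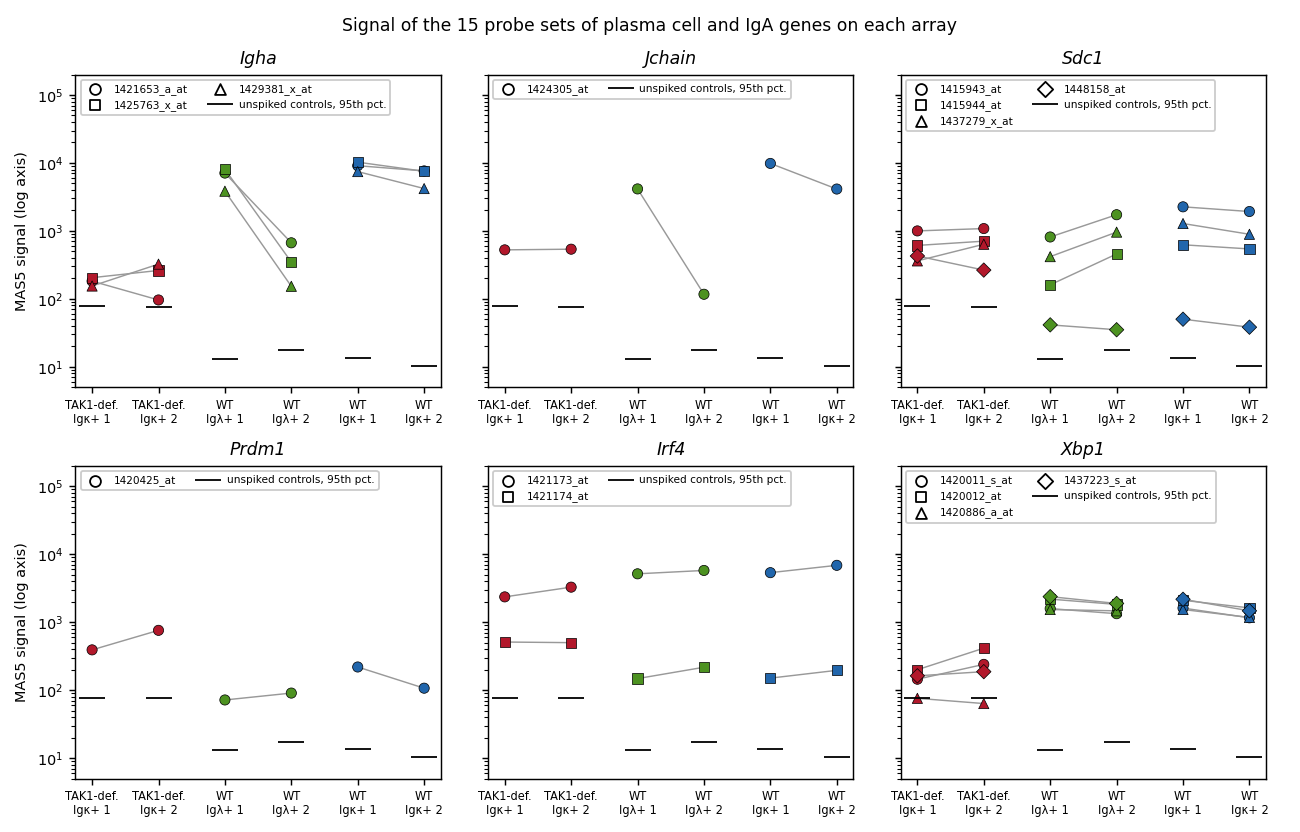
Signal (MAS5, log axis) of the 15 probe sets on each of the 6 arrays, by gene, with TAK1-deficient Igκ+ arrays in red, wild-type Igλ+ in green and wild-type Igκ+ in blue. Grey lines join the arrays of a group, and black dashes mark the 95th percentile of unspiked controls. Igha and Jchain are high on 3 of the 4 wild-type arrays and low on Igλ+ replicate 2.

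The first comparison asked how the plasma cell genes differ by genotype at the same light chain. Igha, Jchain and all Xbp1 probe sets were lower in TAK1-deficient than in wild-type Igκ+ cells, while Prdm1 and single probe sets of Irf4 and Sdc1 were higher on the deposited scale. Of the 15 probe sets 10 fell and 3 rose in limma on log2(signal + 16) at a Benjamini-Hochberg adjusted p under 0.05, where 21.8% of all probe sets fell and 56.8% rose. The TAK1-deficient arrays lay below both wild-type Igκ+ arrays for 11 probe sets, above both for 3 and overlapped them for 1. Over all probe sets these groups did not overlap for 90.3%. In bulk RNA, fewer cells of a type and less RNA per cell cannot be told apart.

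The IgA heavy chain gene showed the largest differences among these 15 probe sets. Igha probe set 1421653_a_at had a signal of 182 and 96.2 in TAK1-deficient Igκ+ cells, 7093 and 668 in wild-type Igλ+ cells, and 9105 and 7630 in wild-type Igκ+ cells. Probe set 1425763_x_at had 205 and 262 in TAK1-deficient Igκ+ cells, 8055 and 348 in wild-type Igλ+ cells, and 10263 and 7531 in wild-type Igκ+ cells. Probe set 1429381_x_at had 154 and 324 in TAK1-deficient Igκ+ cells, 3840 and 153 in wild-type Igλ+ cells, and 7463 and 4196 in wild-type Igκ+ cells. The suffix _x_at marks probe sets with probes that may also read similar transcripts. On all 3 probe sets both TAK1-deficient arrays were below both wild-type Igκ+ arrays, and their mean was 1.66%, 2.62% and 4.11% of the wild-type Igκ+ mean. The log2 differences were -5.81 ± 0.95 (SE), -5.15 ± 1.21 and -4.54 ± 1.27, with adjusted p of 0.000935, 0.00587 and 0.0127 (limma, Benjamini-Hochberg). Relative to the median of all probe sets they were -7.34, -6.68 and -6.07.

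Jchain fell as well, with less margin. Its signal was 526 and 538 in TAK1-deficient Igκ+ cells, 4147 and 117 in wild-type Igλ+ cells, and 9837 and 4130 in wild-type Igκ+ cells. The TAK1-deficient arrays were close to each other and below both wild-type Igκ+ arrays, which themselves differed by 1.25 on the log2 scale. The difference was -3.54 ± 1.38 (SE; limma, Benjamini-Hochberg adjusted p = 0.0468), or -5.07 relative to the median. The call was lost without any 1 of the 4 arrays compared, with adjusted p from 0.0944 without wild-type Igκ+ replicate 2 to 0.207 without wild-type Igκ+ replicate 1 (limma, Benjamini-Hochberg). The adjusted p was 0.117 and 0.113 without TAK1-deficient replicates 1 and 2 (limma, Benjamini-Hochberg), and the log2 difference stayed between -4.17 and -2.92 over these fits. For Igha 1429381_x_at the call was lost without TAK1-deficient replicate 1 (0.0587) and without wild-type Igκ+ replicate 1 (0.0804; limma, Benjamini-Hochberg adjusted p), and the other Igha probe sets kept theirs.

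Xbp1, the transcription factor of the unfolded protein response that expands the endoplasmic reticulum of secretory cells, fell on 4 of 4 probe sets. Probe set 1420886_a_at had 75.8 and 63.5 in TAK1-deficient Igκ+ cells, 1536 and 1469 in wild-type Igλ+ cells, and 1536 and 1175 in wild-type Igκ+ cells. Both TAK1-deficient signals were at or below the 95th percentile of unspiked controls, so its fold is a bound. On the deposited scale this probe set was at least 17.5-fold lower (limma, Benjamini-Hochberg adjusted p = 1.63e-05). With the level adjustment described below its log2 difference was -2.66. The other 3 probe sets had 145 to 415 in TAK1-deficient Igκ+ cells, 1333 to 2376 in wild-type Igλ+ cells and 1161 to 2175 in wild-type Igκ+ cells. No TAK1-deficient array reached any wild-type array on an Xbp1 probe set. Their log2 differences were -2.77 ± 0.32 (1420011_s_at), -2.61 ± 0.36 (1420012_at) and -3.24 ± 0.28 (1437223_s_at, all SE), with adjusted p from 4.26e-05 to 0.000379 (limma, Benjamini-Hochberg). Relative to the median of all probe sets, these 3 differences were -4.30, -4.14 and -4.77.

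Irf4, a factor needed both for early B cell steps and for plasma cells, had probe sets that moved in opposite directions. Probe set 1421173_at had 2358 and 3279 in TAK1-deficient Igκ+ cells, 5152 and 5773 in wild-type Igλ+ cells, and 5358 and 6866 in wild-type Igκ+ cells. Its log2 difference was -1.12 ± 0.20 (SE), with an adjusted p of 0.00142 (limma, Benjamini-Hochberg), and its groups did not overlap. Probe set 1421174_at had 511 and 500 in TAK1-deficient Igκ+ cells, 148 and 217 in wild-type Igλ+ cells, and 150 and 196 in wild-type Igκ+ cells. It rose by 1.47 ± 0.32 (SE; limma, Benjamini-Hochberg adjusted p = 0.00381), which is -0.055 relative to the median of all probe sets, and it fell with median centring (-1.08) and spike-in scaling (-1.76). With quantile normalization (0.31) and the level adjustment (0.65) it was not called. Relative to that median, 1421173_at stood at -2.65, and it missed the threshold with quantile normalization (-0.51; limma, Benjamini-Hochberg adjusted p = 0.0551).

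Prdm1, which encodes the repressor Blimp-1, rose on the deposited scale, by 0.20 more than the median of all probe sets. Its signal was 391 and 759 in TAK1-deficient Igκ+ cells, 71.7 and 90.5 in wild-type Igλ+ cells, and 219 and 107 in wild-type Igκ+ cells. The TAK1-deficient arrays were the highest 2 of the 6. The log2 difference was 1.72 ± 0.45 (SE; limma, Benjamini-Hochberg adjusted p = 0.00953), and it turned to -0.82 after median centring and to -1.50 after spike-in scaling. Quantile normalization (0.61) and the level adjustment (0.37) kept the direction and not the call (limma, Benjamini-Hochberg adjusted p = 0.421 and 0.536). The call was lost without TAK1-deficient replicate 2 (0.0771) and without wild-type Igκ+ replicate 2 (0.0694; limma, Benjamini-Hochberg adjusted p).

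Sdc1, whose product syndecan-1 is widely used to sort plasma cells, gave no single direction. Probe set 1415943_at had 999 and 1082 in TAK1-deficient Igκ+ cells, 814 and 1730 in wild-type Igλ+ cells, and 2260 and 1928 in wild-type Igκ+ cells. The difference was -0.99 ± 0.35 (SE; limma, Benjamini-Hochberg adjusted p = 0.0323). That call was lost without any 1 of the 4 arrays compared, with adjusted p from 0.0733 without TAK1-deficient replicate 2 to 0.145 without wild-type Igκ+ replicate 1 (limma, Benjamini-Hochberg). It was 0.102 without TAK1-deficient replicate 1 and 0.0821 without wild-type Igκ+ replicate 2. Probe set 1448158_at had 427 and 265 in TAK1-deficient Igκ+ cells, 41.4 and 35.1 in wild-type Igλ+ cells, and 50.2 and 38.2 in wild-type Igκ+ cells. It rose by 2.56 ± 0.33 (SE; limma, Benjamini-Hochberg adjusted p = 0.000278). That call was lost under each of 4 other scalings, with 0.28 after quantile normalization, 0.19 after median centring, 0.22 after the level adjustment described below and -0.44 after spike-in scaling (limma, Benjamini-Hochberg adjusted p from 0.342 to 0.657).

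The other Sdc1 probe sets did not pass on the deposited scale. Probe set 1415944_at had 611 and 706 in TAK1-deficient Igκ+ cells, 161 and 458 in wild-type Igλ+ cells, and 624 and 542 in wild-type Igκ+ cells, a log2 difference of 0.17 ± 0.46 (SE). It fell with median centring (-2.45) and spike-in scaling (-3.15). Probe set 1437279_x_at had 362 and 636 in TAK1-deficient Igκ+ cells, 418 and 959 in wild-type Igλ+ cells, and 1284 and 892 in wild-type Igκ+ cells, a log2 difference of -1.13 ± 0.46 (SE; limma, Benjamini-Hochberg adjusted p = 0.0556). It was lower in 16 of 16 alternatives and called in 10 of them, quantile normalization (-1.87), median centring (-3.73) and spike-in scaling (-4.41) included. Relative to the median of all probe sets the Sdc1 probe sets, in the order given, stood at -2.52, 1.03, -1.36 and -2.66.

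Scaling mattered more for some genes than for others. Besides the deposited scale, 4 scalings were tried. These were quantile normalization, median centring of each array, spike-in scaling, which uses the control RNAs added at hybridization, and a level adjustment, a lowess curve that removes the trend of each TAK1-deficient array against the mean wild-type level. All 3 Igha, the Jchain and all 4 Xbp1 probe sets were lower in TAK1-deficient Igκ+ cells under each of the 5 scalings. With the level adjustment Igha had log2 differences of -4.50, -3.79 and -3.07, Jchain had -2.06, and the 3 Xbp1 probe sets above the unspiked controls had -1.45, -1.16 and -1.79. The Jchain difference and 1 of the Igha differences, on 1429381_x_at, did not pass there (limma, Benjamini-Hochberg adjusted p = 0.254 and 0.0849). The direction of Prdm1, of Irf4 (both probe sets) and of Sdc1 (all but 1437279_x_at) changed with the scaling. The level adjustment turned 1421173_at of Irf4 to 0.038 and 1415943_at of Sdc1 to 0.39.

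**Figure D2:**
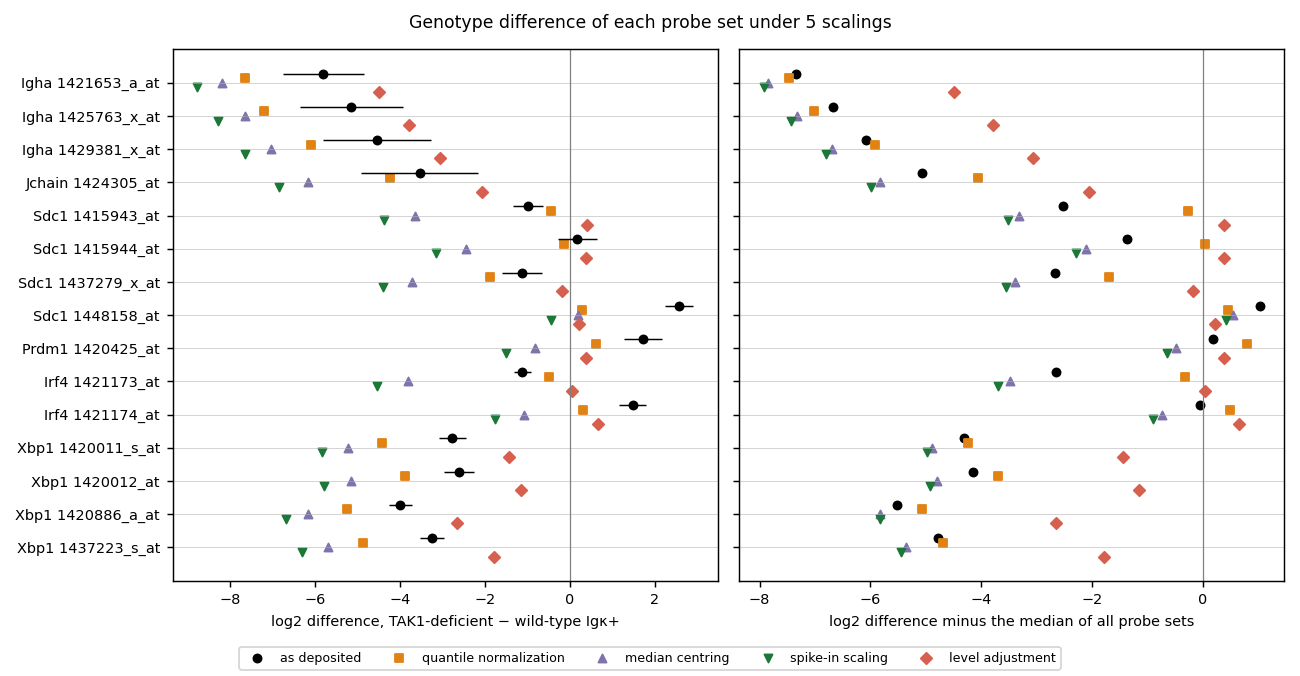
Log2 difference, TAK1-deficient minus wild-type Igκ+, of the 15 probe sets under 5 scalings (left; bars on the deposited values are SE) and the same minus the median of all probe sets under that scaling (right). Igha, Jchain and Xbp1 lie left of 0 under all 5 scalings in the left panel, as does Sdc1 1437279_x_at, and the other probe sets do not. The points of Xbp1 1420886_a_at rest on TAK1-deficient signals at or below the unspiked controls and are bounds.

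The rank of a probe set among all others of its array does not depend on a common scaling factor. Igha stood between percentiles 16.3 and 50.2 in TAK1-deficient Igκ+ cells, at 96.1 to 99.5 on wild-type Igλ+ replicate 1, at 60.4 to 77.3 on Igλ+ replicate 2, and at 96.5 to 99.9 in wild-type Igκ+ cells. Jchain stood at 67.3 and 68.0 in TAK1-deficient Igκ+ cells, 96.7 and 57.4 in wild-type Igλ+ cells, and 99.9 and 96.4 in wild-type Igκ+ cells. So on Igλ+ replicate 2 Jchain ranked below both TAK1-deficient arrays. The Xbp1 probe sets stood at 11.4 to 59.1 in TAK1-deficient Igκ+ cells and at 84.1 to 91.8 over the 4 wild-type arrays. Irf4 1421173_at stood at 96.6 and 97.9 in TAK1-deficient Igκ+ cells, 97.9 and 98.5 in wild-type Igλ+ cells, and 98.3 and 99.0 in wild-type Igκ+ cells, so it was among the brightest probe sets of every array. Prdm1 stood at 56.9 and 78.6 in TAK1-deficient Igκ+ cells, 53.5 and 54.6 in wild-type Igλ+ cells, and 64.9 and 58.4 in wild-type Igκ+ cells, where the genotypes overlapped.

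**Figure D3:**
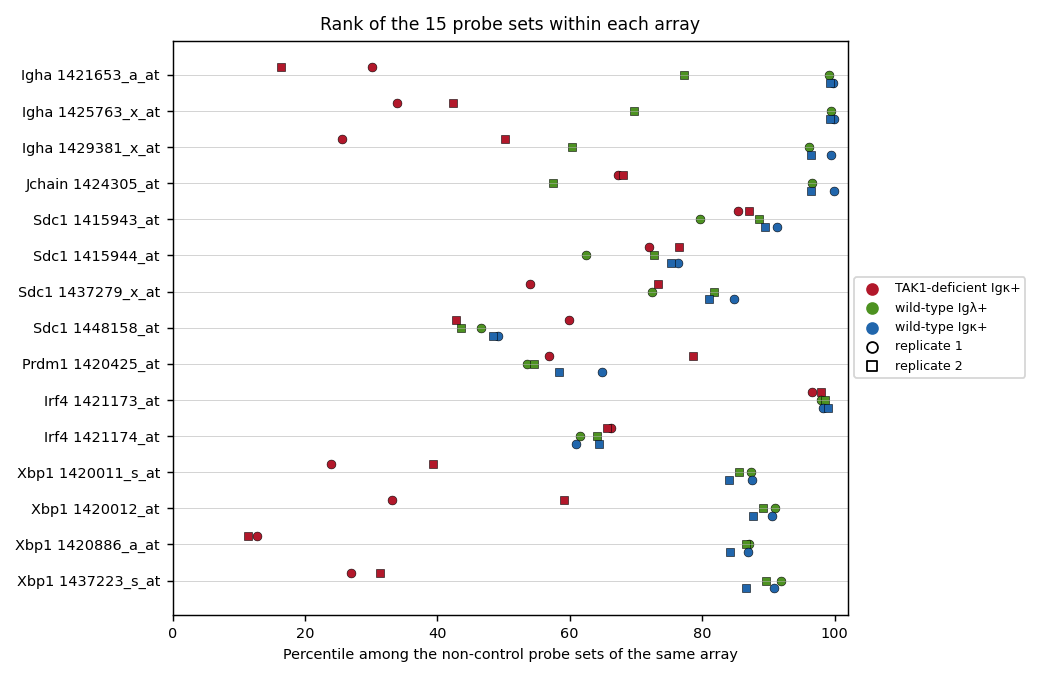
Percentile of the 15 probe sets among the non-control probe sets of the same array, with circles for replicate 1 and squares for replicate 2. The Xbp1 and Igha probe sets have TAK1-deficient percentiles of at most 59.1, below all 4 wild-type arrays, and Irf4 1421173_at is at 96.6 or higher on all 6 arrays.

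The other genes of the plasma cell program were read from lists, each gene by its probe set with the highest mean. Over all genes read this way 32% fell and 49.2% rose in TAK1-deficient Igκ+ cells, with a median log2 difference of 0.96. Of the 24 secretory machinery genes 20 fell and 1, Pdia4, rose (median -1.58). Mzb1, a chaperone of antibody assembly, had 756 and 904 in TAK1-deficient Igκ+ cells, 4296 and 4776 in wild-type Igλ+ cells, and 4288 and 5127 in wild-type Igκ+ cells. Its log2 difference was -2.48 ± 0.18 (SE; limma, Benjamini-Hochberg adjusted p = 1.98e-05). Ssr4 (-2.84), Herpud1 (-2.82) and Txndc5 (-2.80), which serve translocation, degradation and disulfide formation in the endoplasmic reticulum, fell too. Ern1, whose product IRE1 splices the Xbp1 transcript, had 133 and 109 in TAK1-deficient Igκ+ cells, 385 and 395 in wild-type Igλ+ cells, and 334 and 375 in wild-type Igκ+ cells (-1.44 ± 0.28, SE; limma, Benjamini-Hochberg adjusted p = 0.00245). With the level adjustment 9 of the 24 fell and 0 rose (median -0.57), and with median centring 24 of 24 fell, Pdia4 included.

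Of the 10 plasma cell transcription factors, which include Prdm1, Irf4 and Xbp1, 6 fell and 2 rose (median -1.02). Ell2, an elongation factor that favours the secreted form of the heavy chain, fell by 1.83 on the log2 scale, and Atf6, a sensor of the unfolded protein response, fell by 1.71. Of 13 factors that hold the B cell state 7 fell and 3 rose (median -1.03). Pax5, the main keeper of B cell identity, had 191 and 125 in TAK1-deficient Igκ+ cells, 101 and 186 in wild-type Igλ+ cells, and 120 and 193 in wild-type Igκ+ cells, and did not pass on the deposited scale (0.015; limma, Benjamini-Hochberg adjusted p = 0.974). Pax5 fell with quantile normalization (-2.24), median centring (-2.34) and spike-in scaling (-2.93), and stood at -1.04 with the level adjustment, not called. Bcl6 and Bach2, repressors that hold back Prdm1, fell by 1.41 ± 0.14 and 1.03 ± 0.16 (SE; limma, Benjamini-Hochberg adjusted p = 6.98e-05 and 0.00084), and the level adjustment turned Bach2 to 0.27. Ciita (-4.44), which switches on MHC class II genes and was below the unspiked controls on 1 TAK1-deficient array, Id3 (-2.60), an inhibitor of E proteins, and Ets1 (-2.03) fell, and Mitf (5.38) rose. With the level adjustment 4 of the 13 rose and 4 fell, and of the transcription factors 3 rose and 1 fell.

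Of 16 genes of IgA switching, joining and transport, which include Jchain, 10 fell and 2 rose (median -0.83), and with the level adjustment 6 fell and 4 rose (median -0.49). Among those 6, Ccr10 (38.7 and 13.9) and Fcamr (13.4 and 14.2) were below the unspiked controls on both TAK1-deficient arrays. Fcamr stood at 0.26 on the deposited scale and at -2.97 with the level adjustment. Smad3 and Smad4, which carry the signal of TGF-β, fell by 0.59 and 0.71 on the deposited scale and rose with the level adjustment (0.87 and 0.73). Itgb7, an integrin chain for homing to the gut, fell by 3.17 on the log2 scale, Ccr9, a gut homing receptor, rose by 4.81 and the nuclear receptor gene Rora rose too. Rora had 3487 and 3254 in TAK1-deficient Igκ+ cells, 17.4 and 11.2 in wild-type Igλ+ cells, and 6.25 and 9.49 in wild-type Igκ+ cells. Both wild-type Igκ+ signals were at or below the 95th percentile of unspiked controls. On the deposited scale only, Rora was thus at least 287-fold higher on this probe set, 1 of 9 of the gene. Its log2 difference of 7.15 there shrank under every other scaling. It was 3.97 after the level adjustment, 4.41 after spike-in scaling, 5.02 after median centring and 6.62 after quantile normalization. The Ccr9 probe set was 1 of 5. Ccr9 had 1394 and 1327 in TAK1-deficient Igκ+ cells, 23.2 and 50.9 in wild-type Igλ+ cells, and 47.7 and 21.9 in wild-type Igκ+ cells, and is also on the list of plasmacytoid dendritic cell markers. Of 15 plasma cell surface and survival genes, which include Sdc1, 4 fell and 5 rose (median 0.15). Itga4 and Tnfrsf13b are on this list and on that of IgA switching, joining and transport. Tnfrsf17, which encodes BCMA, a survival receptor of plasma cells, had 567 and 483 in TAK1-deficient Igκ+ cells, 35.2 and 12.9 in wild-type Igλ+ cells, and 227 and 35.2 in wild-type Igκ+ cells. It rose by 2.27 ± 0.69 (SE; limma, Benjamini-Hochberg adjusted p = 0.0186), which turned to -0.19 after median centring and to -0.87 after spike-in scaling. Tnfrsf13b, which encodes TACI, fell by 2.06, and the integrin chain gene Itgb1 (2.65) and Cd28 (2.04), a costimulatory receptor, rose on the deposited scale. Spike-in scaling turned Itgb1 to -0.71, Cd28 lay below 0 under all 4 other scalings (-0.90 to -0.28), and with median centring 0 of the 15 genes rose and 10 fell. Of the 3 heavy chain genes measured, Igha was the only one called on the deposited scale. Ighg3, an IgG heavy chain gene read on 1 of its 4 probe sets, stood at -0.95 there. It fell with quantile normalization (-2.98), median centring (-3.41) and spike-in scaling (-4.04). Ighm, the IgM heavy chain gene, had 5634 and 7336 in TAK1-deficient Igκ+ cells, 7486 and 7650 in wild-type Igλ+ cells, and 7199 and 8585 in wild-type Igκ+ cells on probe set 1427329_a_at (-0.29; limma, Benjamini-Hochberg adjusted p = 0.112). It fell with median centring (-3.00) and spike-in scaling (-3.74) and rose with the level adjustment (0.71).

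Markers of other cell types moved with genotype. For T cells, 6 of 7 markers rose, where 49.2% of all genes did, and the signals of the 7 summed to 4644 and 5085 in TAK1-deficient Igκ+ cells, 280 and 109 in wild-type Igλ+ cells, and 117 and 155 in wild-type Igκ+ cells. Bcl11b (2431 and 2313) and Icos (1046 and 1138) were the brightest in TAK1-deficient Igκ+ cells, and Cd3d was below the unspiked controls there. With spike-in scaling Bcl11b (3.75) and Icos (2.21) rose, Cd3d fell (-1.56), and Cd3e, Cd3g, Cd4 and Cd8a were not called. Of 10 stromal and endothelial markers 9 rose and 1 fell, with sums of 6764 and 6640 in TAK1-deficient Igκ+ cells and 1010 to 1313 on the wild-type arrays. Of 10 granulocyte markers 1, Ltf, rose, of 10 monocyte and macrophage markers 2 rose and 1 fell, of 9 plasmacytoid dendritic cell markers 3 rose and 2 fell, of 6 erythroid markers 2 rose and 1 fell, and of 6 NK cell markers 0 rose or fell (limma, 0 with an unadjusted p under 0.05). With the level adjustment 2 T cell markers rose and 1 fell, and 4 stromal and endothelial markers rose and 0 fell. The part of these cells in the differences above was not tested.

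The second comparison asked whether the plasma cell genes differ by light chain at the same genotype. Wild-type Igλ+ cells had lower means than wild-type Igκ+ cells for Igha, Jchain, Sdc1 and Prdm1, and nearly equal ones for Irf4 and Xbp1. None of these differences passed. In limma 0 of 15 probe sets and 0% of all probe sets were called after Benjamini-Hochberg adjustment (smallest adjusted p = 0.999988), and 0 of 15 and 891 of 45037 had an unadjusted p under 0.05. Both Igλ+ arrays lay below both Igκ+ arrays for 5 of the 15, where 7.88% of all probe sets did, and the other 10 overlapped.

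The Igλ+ mean of Igha and Jchain is made of unlike arrays. On Igλ+ replicate 1 the 3 Igha probe sets, in the order above, had 84.8%, 90.5% and 65.9% of the Igκ+ mean and Jchain had 59.4%. On Igλ+ replicate 2 they had 7.98%, 3.91% and 2.62%, and Jchain had 1.67%. Replicate 2 minus replicate 1 was -3.38, -4.47 and -4.51 for Igha and -4.97 for Jchain on the log2 scale, and 4 of the 15 probe sets, these, and 1.09% of all probe sets were at least 4-fold lower there. Only 43 of 45037 probe sets, Jchain included, were as much lower on replicate 2 as Jchain. Between the Igκ+ arrays Igha differed by -0.25, -0.45 and -0.83 and Jchain by -1.25 (replicate 2 minus replicate 1).

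The size of the Igλ+ difference depends on which Igλ+ array is used. With both, the log2 differences of Igha were -1.92 ± 0.95, -2.36 ± 1.21 and -2.80 ± 1.27 (SE) and that of Jchain -3.10 ± 1.38 (limma, unadjusted p from 0.0586 to 0.0922). Without Igλ+ replicate 1 they were -3.61, -4.60, -5.05 for Igha and -5.59 for Jchain. Without Igλ+ replicate 2 they were -0.23, -0.13, -0.54 and -0.62. These fits take the spread of the Igλ+ group from that of the other groups, and no Igha or Jchain probe set passed in either fit (limma, Benjamini-Hochberg).

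Sdc1 ran the other way between the Igλ+ arrays. Probe sets 1415943_at, 1415944_at and 1437279_x_at were 1.07, 1.42 and 1.17 higher on Igλ+ replicate 2 than on replicate 1 on the log2 scale, and 1448158_at stood at -0.17. On 3 of the 4 probe sets the lowest wild-type array was Igλ+ replicate 1, the array on which Igha and Jchain were close to the Igκ+ arrays. The log2 differences from Igκ+ cells were -0.81 ± 0.35, -1.05 ± 0.46, -0.74 ± 0.46 and -0.15 ± 0.33 (SE). For the first 3 they were -0.27, -0.34 and -0.16 without Igλ+ replicate 1 and -1.34, -1.76 and -1.32 without replicate 2. Prdm1 had a difference of -0.81 ± 0.45 (SE, limma, unadjusted p = 0.114), with 71.7 and 90.5 in Igλ+ cells below the 219 and 107 of Igκ+ cells.

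Irf4 and Xbp1 differed little between the wild-type groups. The Irf4 differences were -0.15 ± 0.20 and 0.060 ± 0.32 (SE), and the 4 of Xbp1 ran from 0.087 to 0.24 with SE from 0.27 to 0.36. On all 6 of these probe sets the Igλ+ and Igκ+ arrays overlapped.

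**Figure D4:**
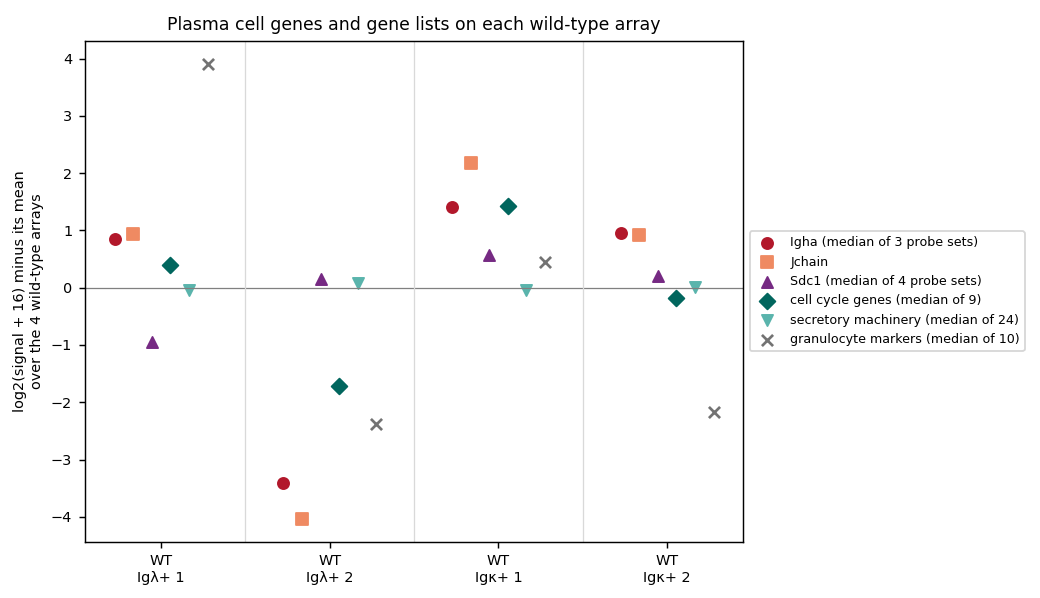
Log2(signal + 16) minus its mean over the 4 wild-type arrays for Igha, Jchain and Sdc1 and the median of 3 gene lists. On Igλ+ replicate 2 Igha and Jchain are low together with the 9 cell cycle genes (-1.71), while the median of the 24 secretory machinery genes stays between -0.038 and 0.091, and the granulocyte markers peak on Igλ+ replicate 1 (3.92) and are low on replicate 2 of both groups (-2.39 and -2.17).

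The list drawn up for dividing plasmablasts holds 9 cell cycle genes that other dividing cells also express, and it varied between the same arrays. With each gene set against its wild-type mean, the list's median was 0.39 for Igλ+ replicate 1, -1.71 for Igλ+ replicate 2, 1.42 for Igκ+ replicate 1 and -0.18 for Igκ+ replicate 2. Of the 9 genes 8 were lowest on Igλ+ replicate 2 and 7 were highest on Igκ+ replicate 1. Mki67, a marker of cycling cells, had 2267 and 2430 in TAK1-deficient Igκ+ cells, where Igha was low, 1379 and 203 in wild-type Igλ+ cells and 2457 and 763 in wild-type Igκ+ cells, and Birc5, a mitosis gene, had 1722 and 143 in wild-type Igλ+ cells and 2677 and 748 in wild-type Igκ+ cells. Pclaf, a replication factor, had 789 and 184 in Igλ+ cells and 1690 and 1077 in Igκ+ cells, the smallest p of the list (-1.77; limma, unadjusted p = 0.0215). The list's median difference was -1.32 with 8 of 9 lower and 0 called, -2.37 without Igλ+ replicate 1, 0.01 without Igλ+ replicate 2, -0.50 without Igκ+ replicate 1 and -2.09 without Igκ+ replicate 2. In TAK1-deficient Igκ+ cells 1 of these 9, Stmn1 (-1.52), fell and 1, Tyms (4.30), rose against wild-type Igκ+ cells. Tyms was read on 1 of its 4 probe sets, with 808 and 892 in TAK1-deficient Igκ+ cells and only 19.1 to 47.6 on the wild-type arrays. Its other probe sets are not shown.

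The secretory machinery did not follow Igha and Jchain among the wild-type arrays. Its median stood between -0.038 and 0.091 on the 4 arrays, and Mzb1 had 4296 and 4776 in Igλ+ cells and 4288 and 5127 in Igκ+ cells. Tnfrsf17 was higher on replicate 1 than on replicate 2 of both wild-type groups (log2 difference between the groups -1.54, 0 called in its list). The granulocyte markers had summed signals of 39404 and 335 in Igλ+ cells and 5423 and 332 in Igκ+ cells, and 10 of 10 were highest on Igλ+ replicate 1. On the TAK1-deficient arrays that sum was 8217 and 8757. The monocyte and macrophage markers had 10894 and 620 in Igλ+ cells and 2305 and 1049 in Igκ+ cells. Granulocyte sums were nearly equal on Igλ+ replicate 2 and Igκ+ replicate 2, where Igha 1421653_a_at had 668 and 7630. The part of these cells in the Igha and Jchain values was not tested.

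Among 21164 single-gene probe sets above the 40th percentile, profiles were compared by the root mean square distance of log2 values, each minus its own mean. Over the 4 wild-type arrays the gene nearest to Igha was Jchain (0.50), followed by the mitotic kinase gene Pbk (0.614) and Birc5 (0.759). The gene nearest to Jchain was Igha (0.268), again followed by Pbk (0.867) and Birc5 (1.01). Over all 6 arrays Jchain and Igha were again nearest to each other (1.02 from Igha and 0.648 from Jchain, which are matched by different Igha probe sets). Next came Myo1f (1.11) and Rap1gap2 (1.19) for Igha and Birc5 (0.981) and Nuf2 (1.03) for Jchain. Over the 6 arrays the nearest profiles were those of Dennd6b (0.0554) for Xbp1, Gadd45gip1 (0.0362) for Irf4, Rsph1 (0.152) for Prdm1 and H2bc21 (0.153) for Sdc1. No other plasma cell gene followed here was among the nearest 3 of these 4.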

How the data were processed

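The 6 samples are Affymetrix arrays of sorted B cell RNA. The deposited signal intensities are linear and come from MAS5 (submitters' processing notes), whose version is not given in the sources used here. On every array, the trimmed mean (lowest and highest 2% left out) was 500.0, which a single factor per array would give. Arrays were grouped by title and genotype label, and the array with the suffix "-rep" was called replicate 2. Gene symbols came from the platform annotation: 34945 probe sets had 1 symbol, 932 several, 9160 none, and 64 were controls. Detection calls were not used. With 2 arrays a group, the number of arrays limits precision.

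Signals were converted to log2(signal + 16), which understates the change of dim probe sets. All 45037 non-control probe sets entered limma 3.58.1 (R 4.3.3): a mean for each group in a fit of all 6 arrays, 3 residual degrees of freedom, eBayes with trend, two-sided, Benjamini-Hochberg adjustment over all probe sets, threshold 0.05. No filter was applied; all 15 probe sets followed also passed the 40th percentile used as an alternative. The script was tested on simulated data. The genes followed, the 15 lists and the tests were chosen with earlier results of these data known, so no list is independent support. Genes outside the 6 were named by rule: the 3 nearest profiles, up to 4 largest called genotype differences and 2 smallest light chain p per list, and Ighm, Tnfrsf17, Mzb1, Pax5, Bach2, Bcl6 and Map3k7. Mki67, Ern1, Pdia4, Smad3, Smad4 and Ighg3 were picked with their values in view. The promoter table is RefSeq's for GRCm38.p6, used for sequence and its own coordinates. A set of 17 alternatives was run. Plots used matplotlib 3.10.9 (Python 3.11.15).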

Additional observations from a re-analysis of the deposited data

How the results depend on the processing

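Of 15 probe sets, 13 were called between TAK1-deficient and wild-type Igκ+ cells. The count was 10 to 14 when each array was left out in turn, 14 with the replicate block, 6 of 6 with 1 probe set per gene (fewer features tested) and 6 with the level adjustment. Over all probe sets 35414 were called, 25599 higher and 9815 lower, and 31097 to 35993 with each array left out, 35603 with the block, 20939 with the 40th percentile filter, 14900 with 1 probe set per gene and 19584 with the level adjustment. The split of higher and lower calls was 12230 and 15452 after quantile normalization (median of all probe sets -0.19), 13027 and 19265 after median centring (-0.35), 9019 and 21332 after spike-in scaling (-0.86), and 10616 and 8968 after the level adjustment (-0.0051). The labels tie replicate numbers to no shared batch, and with 2 pairs they were not taken as pairing the arrays. The correlation of replicate deviations across probe sets was 0.00204 between TAK1-deficient and wild-type Igκ+ arrays and 0.194 between the wild-type groups. What lies behind the latter value was not tested. With the block, 0 probe sets were called between the wild-type groups.

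Over the 17 alternatives the 15 genotype differences gave 201 values with the same call, 25 that lost and 10 that gained a call (all Sdc1 1437279_x_at), and 10 of opposite sign. The reversals were Sdc1 1415943_at (0.39) and Irf4 1421173_at (0.038) with the level adjustment, and Sdc1 1415944_at with quantile normalization (-0.15), median centring (-2.45) and spike-in scaling (-3.15). With spike-in scaling Sdc1 1448158_at was -0.44. Prdm1 was -0.82 and -1.50 and Irf4 1421174_at -1.08 and -1.76 with median centring and spike-in scaling. Jchain also lost its call with a pseudocount of 64 (limma, Benjamini-Hochberg adjusted p = 0.0577) and with eBayes without trend (0.0602). The cause of these changes was not tested.

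For Igλ+ against Igκ+ cells 0 probe sets were called in every alternative but 1: 25 passed without Igλ+ replicate 2, none of them among the 15. Left-out arrays gave 0 to 25 in all. Small differences changed sign in 17 fits, with 229 unchanged. With median centring and spike-in scaling Irf4 1421174_at was -0.13 and -0.12, Xbp1 1420011_s_at -0.11 and -0.098, 1420012_at -0.083 and -0.073, and 1420886_a_at -0.035 and -0.026. With each array left out, Irf4 1421173_at ran from -0.33 to 0.025, Irf4 1421174_at from -0.19 to 0.31, and Xbp1 from -0.15 to 0.32 (1420011_s_at), -0.073 to 0.30 (1420012_at), -0.032 to 0.35 (1420886_a_at) and -0.038 to 0.52 (1437223_s_at).

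With 2 arrays a group and TAK1-deficient arrays whose controls differ from the rest, the directions of Prdm1, Irf4 and all Sdc1 probe sets but 1437279_x_at rest on the scaling.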

Other observations

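Some other heavy chain probe sets varied widely among the wild-type arrays. For Ighm, with 11 probe sets, the highest wild-type signal was 1188 times the lowest on 1425247_a_at and 376 times on 1427869_at. On 1427870_x_at, 1427756_x_at, 1425324_x_at, 1425385_a_at and 1452535_at it was 2985, 304, 151, 106 and 43.2 times the lowest. On 1426196_at and 1451949_at it was 5.04 and 2.72 times the lowest. On the bright Ighm probe sets 1427329_a_at and 1427351_s_at it was only 1.19 and 1.41 times the lowest. The Ighm probe sets that varied widely can therefore not be read as the level of Ighm RNA as a whole. Probe set 1425247_a_at of Ighm had a signal of 35.0 and 189 in TAK1-deficient Igκ+ cells, 1255 and 4.24 in wild-type Igλ+ cells, and 5036 and 37.3 in wild-type Igκ+ cells. Probe set 1427869_at of Ighm had 19.6 and 32.2 in TAK1-deficient Igκ+ cells, 940 and 10.4 in wild-type Igλ+ cells, and 3910 and 40.1 in wild-type Igκ+ cells. Both were high on replicate 1 of each wild-type group and below the 95th percentile of unspiked controls on replicate 2 of Igλ+ cells. Igha, by contrast, was high on both Igκ+ arrays. Ighg3, an IgG heavy chain gene, has 4 probe sets. Probe set 1427503_at had 232 and 195 in TAK1-deficient Igκ+ cells, 979 and 236 in wild-type Igλ+ cells, and 865 and 205 in wild-type Igκ+ cells. On 1447998_at the signals were 154 and 174, 1241 and 422, and 343 and 275 in the same order. On 1426198_at and 1426199_x_at, 3 of the 4 wild-type arrays were at or below the 95th percentile of unspiked controls for each. Apart from Ighm 1427329_a_at, the Ighm and Ighg3 probe sets named here were picked with their values in view.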
